A study of Sus scrofa with 5 samples.

Results

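Steady transcripts are those whose abundance in additional molar germs of miniature pigs stayed within a 3-fold range from E50 to E70. They were chosen by their FPKM (fragments of RNA sequenced from a transcript, scaled to its length and to the mapped reads), with an FPKM of 1 or more at each of the 3 stages and a highest FPKM of at most 3 times the lowest. Of 45614 assembled transcripts, 967 met the rule (2.12%). A further 3553 transcripts also had an FPKM of 1 or more at every stage but a ratio above 3, so that the steady ones made up 21.4% of the 4520 transcripts present at every stage. The values that chose them are the values shown here, so their levels are a description and carry no test.

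The samples were additional molar germs, with the dental lamina attached, from the mandibles of wild type miniature pig embryos at embryonic days 50, 60 and 70, and the labels name no treatment. By the study's methods, the first molar was then in cap, early bell and late bell stage, respectively, and the germs of a stage came from the same litter. The labels list 3 samples for E70 and 1 for each of the other stages, whereas each transcript has a single FPKM per stage. RNA was pooled and, by the study's methods, mapped reads of replicates were merged, so the E70 value may join several libraries, no spread between animals can be given, and no P value was computed. In such whole germs, fewer cells of a type and less RNA per cell cannot be told apart. The tables used here gave no usable gene symbols for the transcripts, so the tissue label was not checked against marker genes, and transcripts are named by their identifier and their locus (scaffold, start and end) on the WZSP assembly of the Wuzhishan pig. Where 3 FPKM are given for a transcript, they follow the order of the stages, from E50 to E70.

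During the passage from cap to bell stage, the epithelial enamel organ folds around the mesenchyme of the dental papilla and their cells begin to differentiate, and many developmental genes change their activity. Transcripts of housekeeping genes, which serve functions shared by all cells such as protein synthesis and energy supply, are commonly looked for among those that change little, and they serve as references for other measurements. A locus can give several transcripts that differ in their exons, and an assembler divides the reads of shared exons among them, so a steady transcript is not the same as a steady gene.

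Which transcripts count as steady depended on the scale. When each stage was scaled to the same median over the 11301 transcripts above 0 at every stage, 950 transcripts met the rule, of which 165 were among the 967 (17.1% of the 967). After quantile normalisation 2460 met it, and 183 of the 967 were among them (18.9% of the 967 and 7.44% of the 2460). The medians behind the scaling were 1.86, 6.82 and 1.46 FPKM by stage. Unless a scaling is named, values are FPKM as deposited.

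Among transcripts present at every stage, steady ones were mostly of low to moderate abundance. The median over the 967 came to 8.13 FPKM for E50, with quartiles of 3.13 and 27.7. For E60 it was 8.02 FPKM (3.52 to 27.1), and for E70 7.74 FPKM (2.72 to 28.0). The highest value of every stage belonged to TCONS_00592508 (11665, 30934 and 21164 FPKM). The transcripts above 3-fold were more abundant, with medians of 20.01, 15.6 and 27.7 FPKM by stage. A single high stage raises both level and ratio, so this difference is a description only. Over all transcripts the medians were 0, 3.19 and 0 FPKM, with upper quartiles of 1.23, 12.5 and 0.957.

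Summed by stage, the 967 had 104123, 101406 and 128825 FPKM. The sum over all transcripts varied far more, with 44747113, 3117182 and 88974346 FPKM. The steady transcripts therefore made up 0.233%, 3.25% and 0.145% of all FPKM, the largest share being that of E60. The 10 most abundant transcripts of a stage carried 57.5%, 35.3% and 72.2% of the sum. Only 1 of these was steady, at E60, and none at E50 or E70. The highest single values were 14600000 FPKM at E50 and 35700000 at E70, but 355413 at E60. The transcripts were thus steady in FPKM as deposited, whereas their share of all FPKM was not. That share rests on the few highest values, and whether these are true abundances was not examined, so no change is read from it.

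The 967 filled the allowed range unevenly, and few were near constant. Their median ratio of highest to lowest FPKM was 2.06 (quartiles 1.62 and 2.49). A ratio of at most 1.1 was found for 12 transcripts, of at most 1.5 for 181 and of at most 2 for 449 (46.4%). The 3 transcripts nearest to the limit from inside had ratios just under 3. TCONS_00552334 had 4.89, 9.17 and 3.06 FPKM, TCONS_00814809 had 10.4, 3.47 and 10.0, and TCONS_00245440 had 2.55, 5.77 and 1.92. Just outside lay TCONS_00586310 with 1.74, 5.22 and 1.86 FPKM, TCONS_00705640 with 27.9, 14.5 and 43.5, and TCONS_00745323 with 9.75, 6.97 and 20.9, the last with a ratio of 3.01. The limit thus parted transcripts of nearly equal ratio. At the limit on abundance, TCONS_00459993 (1.002, 2.01 and 1.14 FPKM) and TCONS_00123282 (1.5, 2.88 and 1.01) were just inside. TCONS_00734042 (1.05, 0.998 and 1.69 FPKM) and TCONS_00915721 (1.17, 0.994 and 2.18) were just outside, each because of E60 alone.

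Mean FPKM and steadiness come from the same 3 values, and a single high stage raises both the mean and the ratio, so the shares by abundance are a description only. Among transcripts present at every stage, 81 of 83 with a mean FPKM from 1 to under 2 were steady (97.6%), a share that the minimum of 1 FPKM nearly forces, since such a mean leaves little room for a ratio above 3. At higher means it was lower. At a mean of 5 to under 10 it was 164 of 644 (25.5%). From 20 to under 50 it was 132 of 772 (17.1%), and from 100 to under 300 it was 47 of 497 (9.46%). It did not go down at every step, with 21 of 370 from 300 to under 1000 (5.68%) and 24 of 285 from 1000 to under 10000 (8.42%). Of 81 transcripts with a mean of 10000 or more, 1 was steady (1.23%). In all, 25 of the 967 had a mean FPKM of 1000 or more, against 341 of the 3553 above 3-fold.

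The most abundant steady transcript, TCONS_00592508 (scaffold 325, 2682036 to 2698797), had 11665, 30934 and 21164 FPKM, and was highest at E60. Its locus held 17 transcripts, and the others summed to 784995, 151246 and 149261 FPKM, so that it made up 1.46%, 17.0% and 12.4% of the locus. Next came TCONS_00556451 (scaffold 307, 1542907 to 1546208), the only transcript of its locus, with 7294, 3612 and 10721 FPKM, lowest at E60. TCONS_00711323 (scaffold 41, 2673840 to 2678066) had 5798, 2514 and 5735 FPKM, nearly equal at E50 and E70 and lower at E60. TCONS_00631923 (scaffold 352, 2639557 to 2641781) was the steadiest of the 5 most abundant, with 3717, 4314 and 4589 FPKM and a ratio of 1.23. The other transcript at that locus had 514, 21464 and 1445 FPKM, so the steady one made up 87.9%, 16.7% and 76.1% of the locus by stage. TCONS_00831728 (scaffold 484, 207231 to 209381) had 4178, 2558 and 4757 FPKM, beside others that summed to 228209, 2512 and 126883. Where these 5 had other transcripts at the locus, the sum of the others spanned a wider range than the steady one.

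Among steady transcripts with a mean FPKM of 10 or more, the most constant was TCONS_00536614 (scaffold 298, 2443976 to 2452547), with 11.5, 11.5 and 11.2 FPKM, a ratio of 1.03. TCONS_00121389 (scaffold 124, 3460396 to 3472736) followed at a far higher level, with 2464, 2589 and 2371 FPKM and a ratio of 1.09. TCONS_00055017 (scaffold 1058, 43654 to 57249) had 11.3, 11.1 and 10.4 FPKM. Near constancy thus occurred at low and at high abundance. TCONS_00605107 (scaffold 332, 7181920 to 7196366) had 31.5, 28.7 and 30.7 FPKM, and TCONS_00669784 (scaffold 386, 1122879 to 1130761) had 31.7, 35.0 and 31.9, both with a ratio of 1.1. All 5 shared their locus with other transcripts, and in each the summed others varied more than the steady one. The others beside TCONS_00055017 summed to 1617, 125 and 1842 FPKM, and the single other transcript beside TCONS_00669784 had 0, 134 and 3.74.

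At 102 loci the steady transcript was the only one in the table, which holds the part of the assembly that the authors kept after a filter on exon number. The most abundant of these, after TCONS_00556451, was TCONS_00652888 (scaffold 368, 184813 to 186171), with 2345, 2624 and 4869 FPKM. TCONS_01052395 (scaffold 745, 408601 to 411930) had 4478, 1657 and 3692, and TCONS_00837280 (scaffold 49, 1752722 to 1754422) had 1704, 657 and 1692. TCONS_01030087 (scaffold 719, 11342158 to 11343813) had 731, 1414 and 1730.1. With TCONS_00556451 counted in, 3 of the 5 were lowest at E60 and the other 2 were lowest at E50, and none had a ratio under 2.

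The loci with a single transcript in the table also gave a view of the relative depth, which the table does not state. Where a value rests on few fragments, the ratio of a transcript's FPKM at 2 stages is a ratio of small whole numbers times what 1 fragment is worth at each stage. There were 1876 single-transcript loci above 0 at E50 and E70. Of their ratios, 68 lay within 0.003 (log2) of a log2 ratio of 0.323, against 0 in a window of the same width beside it. That would put the worth of 1 fragment at E50 at 1.25 times that at E70. This factor was the best of those tried, so its count was chosen to be high. Counted over ratios of small whole numbers, 369 lay near one at this factor, against a median of 12 over the factors tried. The factor was picked for the highest such count, so the 369 adds no separate support. A further factor of 2 cannot be told apart. For E50 and E60 the pattern was weaker, with 20 of 2274 ratios at the best factor (1.62) against 1 beside it, and so it was for E60 and E70, with 16 of 2006 (0.770) against 3. Among steady transcripts at such loci, 7 of 102 (6.86%) had an E50 to E70 ratio that, with the factor of 1.25 taken out, lay within 0.003 (log2) of a ratio of whole numbers up to 5. The share was 21 of 353 above 3-fold (5.95%), and 461 of 1421 among transcripts under 1 FPKM at a stage (32.4%). The minimum of 1 FPKM separates these sets, so nothing about steadiness is read from the shares.

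Within the 3-fold limit, no stage held most of the highest or of the lowest values. The highest FPKM was at E60 for 366 of the 967 (37.8%), at E70 for 312 (32.3%) and at E50 for 289 (29.9%). The lowest was at E60 for 332 (34.3%), at E50 for 320 (33.1%) and at E70 for 315 (32.6%). The transcripts above 3-fold were less even, with the lowest FPKM at E60 for 1821 of 3553 (51.3%), and highest at E70 and lowest at E60 for 1081 (30.4%), an order found for 158 of the 967 (16.3%). These orders come from the values that chose the sets, and were not tested. With a minimum of 10 FPKM at every stage, 161 of 347 steady transcripts were lowest at E60 (46.4%) and 99 were highest there (28.5%). With the stages scaled to a common median, 297 of 950 were highest at E60 (31.3%) and 339 were lowest there (35.7%), so which of the 2 was more frequent at E60 depended on these choices.

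Between pairs of stages, a 2-fold change on the log2(FPKM + 1) scale could still occur within the rule. From E50 to E60, 69 steady transcripts were higher by 2-fold or more at E60 (7.14%, beside 56% of all 45614) and 111 were lower (11.5%, beside 14.1%). From E60 to E70, 113 were higher at E70 (11.7%, beside 14.3% of all) and 74 lower (7.65%, beside 56.1%). From E50 to E70, 58 were higher at E70 (6.0%, beside 11.8% of all) and 39 lower (4.03%, beside 10.7%). Since the rule used these contrasts, nothing is read from the shares. In absolute size, the median difference over the 967 was 0.53 from E50 to E60, 0.56 from E60 to E70 and 0.43 from E50 to E70 on that scale. The median signed differences (later minus earlier stage) were 0.06, 0.00 and -0.01. The comparisons share their stages.

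The 967 lay at 909 loci on 395 scaffolds. Scaffold 332 held 19 of them among its 728 transcripts (2.61%), and scaffolds 1 and 272 held 16 each, of 385 (4.16%) and 372 (4.30%). The rule used neither position nor locus structure, and locus structure is set beside that of transcripts above 3-fold. A locus with a steady transcript spanned a median of 27024 bp, introns included (quartiles 10277 and 72617), against 27734 bp for loci of transcripts above 3-fold and 18303 bp over all 18696 loci. In total, 102 of the 967 (10.5%, Wilson 95% confidence interval 8.77% to 12.6%, counting error over transcripts only) were alone at their locus in the table, against 353 of 3553 above 3-fold (9.94%, 8.99% to 11.0%) and 8168 of all 45614 (17.9%). The share of steady transcripts depended on the limit, with 6.63% at a highest FPKM of at most 1.5 times the lowest and 7.57% at 2 times. The mean number of transcripts at the locus was 4.37 for steady transcripts, 4.32 for those above 3-fold and 3.89 over all. Loci with 8 or more transcripts held 105 of the 967 (10.9%), 397 of the 3553 (11.2%) and 4091 of all 45614 (8.97%).

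The sum of the other transcripts of the locus was mostly not steady. These others were themselves put to the rule, and they include a further steady transcript at the 50 loci that held 2 and the 4 that held 3. At some of these loci, steady transcripts had equal FPKM at E50 and equal FPKM at E70, and were still counted singly. Of 865 steady transcripts at loci with several transcripts, the others summed to 1 FPKM or more at every stage for 512 (59.2%), and those sums stayed within 3-fold for 99, which is 19.3% of the 512 (Wilson 95% confidence interval 16.1% to 23.0%). For transcripts above 3-fold, the sums of the others stayed within 3-fold in 290 of 1931 (15.0%, 13.5% to 16.7%), and over all transcripts at loci with several in 2871 of 17842 (16.1%). For the 753 steady transcripts with no other steady one at the locus, the sums of the others stayed within 3-fold in 58 of 400 (14.5%, 11.4% to 18.3%). That choice itself takes away others that were steady, and it was made for the steady set alone. The share is therefore not comparable with that above 3-fold. Transcripts of a locus can share reads, and no difference was tested. Out of all steady transcripts at loci with several, the share with steady others was 11.4%, and it depended on the scale, with 19.9% after quantile normalisation and 6.90% with the stages scaled to a common median. Over the 512, the median ratio of the highest to the lowest sum was 10.5.

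Locus totals were steady for a minority as well. With all transcripts summed, the total stayed within 3-fold for 295 of the 865 (34.1%). It did so for 534 of 3200 transcripts above 3-fold (16.7%) and for 3627 of all 37446 at loci with several (9.69%). Each total includes the transcript that the rule placed in its set. The shares are therefore a description, and nothing is read from their differences. Among the 753 with no other steady transcript at the locus, the total was steady for 240 (31.9%). The median ratio of the locus total was 4.84. Counted by locus and leaving out single-transcript loci, where the rule fixes the total, 266 of 807 loci with a steady transcript had a steady total (33.0%), and 541 did not. The share was 342 of 2270 for such loci with a transcript present at every stage but no steady one (15.1%), and 878 of all 10528 (8.34%). Totals of loci with a steady transcript again include it, so no difference is read from these shares.

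What the steady transcript contributed to its locus was smaller at E60, as it was for transcripts above 3-fold. At E50 the median over the 865 was 46.1% of the locus total, with quartiles of 7.40% and 96.8%. At E60 it was 22.9% (9.74% to 47.3%), and at E70 it was 46.0% (3.93% to 97.6%). For transcripts above 3-fold the medians were 69.3%, 26.5% and 64.8% by stage. Over all transcripts at loci with several and a total above 0, the median was instead largest at E60, with 0.0793%, 18.1% and 0.0256%. Of all transcripts at loci with several, 52.9%, 13.5% and 55.0% were listed at 0 by stage. Both chosen sets required an FPKM of 1 or more at every stage, which favours larger contributions at E50 and E70. Nothing is therefore read from these differences between stages or sets. More than 50% of the locus total came from the steady transcript in 420 (48.6%), 200 (23.1%) and 415 (48.0%) of the 865 by stage, beside 56.4%, 29.3% and 54.5% above 3-fold and 25.8%, 21.6% and 25.5% over all transcripts at loci with several and a total above 0. The summed others had medians of 9.53, 32.3 and 11.3 FPKM, with the largest at E60. Beside the 753 steady transcripts with no other steady one at the locus, these medians were 4.54, 29.9 and 4.28 FPKM. The median contribution of those 753 was 59.6%, 24.0% and 57.6% by stage. For the 865, the summed others were highest at E60 in 464 of the 861 cases in which they were above 0 (53.9%). They were listed at 0 beside 148, 13 and 152 of the 865 by stage. Over all 37446 transcripts at loci with several, the others were highest at E60 for 58.5% of those with others above 0, and above 3-fold for 1516 of 3167 (47.9%), so the share beside steady transcripts lay between the 2.

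Taken singly, and here without any further steady transcript, 2885 others lay at 805 of these loci. By stage, 926 (32.1%), 2173 (75.3%) and 911 (31.6%) of them had an FPKM of 1 or more. Over all transcripts at loci with several, steady ones included, the shares were 28.7%, 74.5% and 27.3%. Of the 2885, 1039 (36.0%) were above 0 at E60 alone, beside 36.6% of all transcripts at such loci. More transcripts were thus seen at E60 than at the other stages, beside steady transcripts as over all loci with several.

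Among steady transcripts whose summed others were 1 FPKM or more at every stage, the others had the widest range at 3 loci. TCONS_00451398 (scaffold 2543, 396481 to 415334) had 34.2, 27.6 and 28.8 FPKM, while the other transcripts summed to 520, 24.3 and 6010369. Nearly all of the last sum came from TCONS_00451489, listed at 0, 0 and 6010000 FPKM. That single value exceeds the sum over all transcripts at E60 (3117182 FPKM). Whether it is a true abundance was not examined, and the place of this locus among those that varied most rests on it. TCONS_00354110 (scaffold 213, 4035804 to 4077681) had 5.38, 3.94 and 1.82 FPKM beside others that summed to 1.43, 13.2 and 90495, of which TCONS_00356232 held 90494 at E70 and was listed at 0 before. TCONS_00134644 (scaffold 1269, 97112 to 109798) had 35.8, 15.2 and 20.6 FPKM beside sums of 8021, 15205 and 2.89. At the last locus TCONS_00134375 had 7879, 15051 and 0 FPKM, so in each of the 3 a single transcript made up most of the largest sum.

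Steadiness of the sum could also hide changes among its parts. The others varied least beside TCONS_00061594 (scaffold 1074, 519991 to 572395), which had 117, 47.6 and 97.8 FPKM, lowest at E60, while the others summed to 197, 203 and 203. Within that sum, TCONS_00061390 had 196, 0 and 198 FPKM and TCONS_00061606 had 0.990, 198 and 5.04, so at E60 another transcript carried nearly the same FPKM. Beside TCONS_00522513 (scaffold 2926, 15100 to 17845; 3.27, 6.21 and 4.66 FPKM) the others summed to 32.1, 33.5 and 30.7, of which TCONS_00522267 held 26.2, 1.85 and 19.6 and TCONS_00522248 held 1.99, 27.0 and 3.14. TCONS_00476543 (scaffold 271, 1158436 to 1231498) had 16.8, 9.58 and 18.9 FPKM, and beside it TCONS_00475287 had 90.1, 30.2 and 91.6 and TCONS_00475068 had 0.187, 76.1 and 13.4. In these 3 loci the total was steady and the main transcript at E60 was not that at E50 and E70.

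Most loci held a single steady transcript (855 of 909), 50 held 2 and 4 held 3. At the locus on scaffold 1219 (234008 to 261452), 3 of the 4 transcripts were steady. TCONS_00114852 had 56.5, 58.9 and 42.1 FPKM, TCONS_00114865 had 10.8, 25.9 and 24.1, and TCONS_00115230 had 8.78, 9.09 and 5.68. The remaining one, TCONS_00114853, was listed at 0 at E50 and E70 and had 68.1 FPKM at E60, where it was the most abundant of the locus.

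On scaffold 1640 (644759 to 648763), 3 of 6 transcripts were steady, all above 100 FPKM. TCONS_00242421 had 164, 312 and 252 FPKM, TCONS_00243388 had 340, 397 and 483, and TCONS_00243389 had 886, 634 and 669. The other 3 were not steady, and each had a higher FPKM at E50 than any of the steady ones, TCONS_00243047 with 5194, 88.5 and 692, TCONS_00243048 with 3971, 729 and 0, and TCONS_00243780 with 1027, 485 and 7866.

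Both other loci with 3 steady transcripts held 10 transcripts each. On scaffold 188 (11768019 to 11785302), TCONS_00293533 had 7.63, 9.57 and 13.0 FPKM, TCONS_00293534 had 10.5, 4.88 and 5.87, and TCONS_00295477 had 13.2, 4.72 and 12.8. These were the 3 most abundant transcripts of the locus at E50, where the other 7 were all under 1 FPKM. At E60 all 7 were above 6 FPKM, so the locus then held many transcripts of like abundance. On scaffold 43 (157643 to 174636), TCONS_00752181 had 31.1, 27.4 and 36.3 FPKM, TCONS_00752678 had 33.5, 13.3 and 26.3, and TCONS_00752943 had 38.5, 15.6 and 43.1. None of these was the leading transcript there, which was TCONS_00752217 at E50 and E70 (196 and 193 FPKM) and TCONS_00752727 at E60 (132 FPKM, listed at 0 at E50 and E70).

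Steady transcripts at the loci with the most transcripts were minor ones. The locus on scaffold 104 (13519490 to 13765147) held 23 transcripts, the largest number in the table, and 2 were steady. TCONS_00046139 had 27.6, 22.0 and 24.1 FPKM, and TCONS_00047378 had 3.31, 2.10 and 4.22. The most abundant there at E50 and E70, TCONS_00045434, had 1783, 36.3 and 6649 FPKM. TCONS_00046139 made up 0.809%, 4.53% and 0.275% of the locus by stage. On scaffold 402 (181159 to 525262), with 20 transcripts, TCONS_00698191 had 5.89, 12.5 and 10.0 FPKM, beside others that summed to 1331, 214 and 968.

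Along the scaffolds, 112 of the 909 loci with a steady transcript had another such locus as a direct neighbour (12.3%, Wilson 95% confidence interval 10.3% to 14.6%). The share was 273 of 2623 for loci that held a transcript present at every stage but no steady one (10.4%, 9.30% to 11.6%), and 9.12% over all loci. The first 2 intervals overlap and the difference was not tested, so nothing is read from it about grouping along the scaffolds. The longest runs were of 3 adjacent loci, and there were 2 of them. On scaffold 272, TCONS_00479301 (660267 to 666160; 3.64, 2.25 and 1.88 FPKM), TCONS_00479303 (674447 to 699306; 8.27, 7.31 and 9.57) and TCONS_00477707 (721994 to 728108; 15.2, 12.4 and 24.2) followed each other with gaps of 8286 and 22687 bp. On scaffold 1277, TCONS_00140700 (609276 to 636429; 147, 59.0 and 100.5 FPKM), TCONS_00139628 (661096 to 663827; 7.02, 7.23 and 5.86) and TCONS_00141060 (664627 to 677876; 9.82, 15.8 and 25.2) did so, the last 799 bp after the middle one. In neither run did all 3 transcripts share the order of the stages.

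None of the 967 was on a list of lincRNAs that holds 0.987% of all transcripts. That list was chosen for change between stages, so its lack of overlap with steady transcripts is largely fixed by both choices. In the authors' table, 955 of the 967 carried the status of a completed test between E50 and E60, 956 between E60 and E70 and 917 between E50 and E70 (98.8%, 98.9% and 94.8%, beside 77.5%, 77.5% and 27.4% of all transcripts). Between E50 and E70, 39 of the 967 were listed as not tested, beside 31153 of all 45614. In 12 of the 967 a status of too little data or of a failed fit was given in at least 1 comparison. Between E50 and E70, too little data was listed for 10 of the 967 and a failed fit for 1, beside 1934 and 10 of all 45614. The rows of the table gave differing FPKM of a stage for 901 of all transcripts, but for none of the 4520 present at every stage, steady or not.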

How the data were processed

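RNA pooled from the germs of a stage was sequenced, strand-specific and paired-end. The authors used TopHat for alignment against the WZSP genome, assembled transcripts with Cufflinks, merged the assemblies with Cuffmerge and compared stages with Cuffdiff (the sources used here differ on the Cufflinks version). The deposited FPKM values were scaled by the authors to transcript length and mapped fragments. The methods name quantile normalisation, but the quantiles of the deposited values differ from stage to stage. The values therefore entered without further scaling, and quantile normalisation was tried as an alternative. Columns with the authors' fold change, test statistic, p-value and q-value of each comparison were not used, apart from the test status.

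The FPKM of a stage was read from the rows that name it, taking the larger value where rows differed. A single value per stage allowed no SD and no test. Wilson 95% confidence intervals reflect the number of transcripts counted and no spread between animals, and transcripts that share a locus are not independent. Loci are the intervals of the table, with starts converted to count from 1. The table gives no read numbers, and the study's totals of reads per stage were not used here. By the study's text, its transcripts are part of a larger merged assembly, filtered on exon number. The check of what 1 fragment is worth, and the count without loci that hold several steady transcripts, were chosen after seeing the data. A table that pairs transcripts with symbols was at hand only in shortened form, with symbols turned into dates, so no marker list was used, and no sequence is shown. Members and lists were chosen with earlier results of these data known.

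Transcripts were named by rule: the highest means, the smallest ratios, the most abundant at single-transcript loci, those nearest to the limits, loci with the most steady transcripts (with ties) or the most transcripts, loci whose other transcripts varied most or least, and the longest runs of adjacent loci. Other transcripts of those loci were named after their values were seen. The calculations were tested on simulated data and ran in Python 3.11.15 with numpy 2.4.6, pandas 2.3.3 and scipy 1.17.1.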

Additional observations from a re-analysis of the deposited data

How the results depend on the processing

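No paired analysis was possible because the table gives 1 value per stage, and for the same reason no replicate could be left out. The cause of the shifts was not tested. Quantile normalisation gave 2460 steady transcripts, which were 32.5% of the 7559 with a value of 1 or more at every stage after it. The summed others of the locus were steady for 11.4% of all steady transcripts at loci with several (99 of 865) as reported, for 19.9% under this normalisation and for 7.70% (58 of 753) where no other transcript of the locus was steady, a count chosen after seeing the data. Under the same normalisation the locus total was steady for 45.3%, and 40.6% were lowest at E60. With the stages scaled to a common median, 14.5% were alone at their locus, the others were steady for 6.90%, and 31.3% were highest at E60. With any FPKM above 0, the share steady was 11.8%, alone at the locus 13.7%, with a steady total 28.2% and lowest at E60 31.2%. A minimum of 0.5 FPKM gave a share steady of 18.2%. A minimum of 5 gave 507 transcripts (25.2%), with steady others for 14.2%, a steady total for 41.4%, and 30.6% highest and 43.0% lowest at E60. A minimum of 10 gave 347 (24.7%), with a steady total for 43.8%, and 28.5% highest and 46.4% lowest at E60. With a changed minimum, the share steady is over the transcripts that met it at every stage. These were 11301 above 0, 6266 at 0.5, 2014 at 5 and 1407 at 10 FPKM. A limit of 1.5 times gave 181 (4.00%), of which 6.63% were alone at their locus, 32.0% highest and 30.4% lowest at E60. A limit of 2 times gave 449 (9.93%), of which 7.57% were alone and 31.4% lowest at E60. A limit of 4 times gave a share steady of 30.0% and a steady total for 31.0%. The rule applied to E50 and E60 alone gave 3091 transcripts, to E60 and E70 alone 2718, and to E50 and E70 alone 5315. At single-transcript loci alone, 32.4% were highest at E60. The count of steady transcripts stayed within 1.5 times under 8 of its 16 alternatives, 2 of which concern differing rows and could not change it. The rule applied to locus sums counts loci and gave 980. E60 held the lowest value more often than the highest under both scalings, with a minimum of 5 or 10 FPKM and at single-transcript loci, unlike in the values reported. The number of fragments behind each value is unknown, and the division of reads among transcripts could not be examined.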

Other observations

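Loci could be steady in total with no steady transcript. Of 5483 loci whose total was 1 FPKM or more at every stage, 980 had a total within 3-fold, and 612 of these held no steady transcript. At 270 of the 612, no single transcript reached 1 FPKM at every stage. At the locus on scaffold 1078 (370831 to 376760) the total was 340, 299 and 431 FPKM for E50, E60 and E70. There TCONS_00062187 had 340, 0 and 430.5 FPKM, TCONS_00062490 had 0, 217 and 0.980, and TCONS_00062491 had 0.324, 81.9 and 0. On scaffold 798 (518709 to 553567) the total was 359, 153 and 355 FPKM, with TCONS_01080466 at 358, 0 and 354 and TCONS_01080395 at 1.04, 90.1 and 0.357. On scaffold 568 (506500 to 548723) the total was 3656, 2537 and 5341 FPKM, all of it from TCONS_00904303 at E50, where TCONS_00904556 was listed at 0, and mostly from TCONS_00904556 after that (2397 FPKM at E60 and 4912 at E70). These loci were chosen after their values were seen.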
